A study of Mus musculus with 6 samples.

Results

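The Fc receptor genes of B cells described here are Fcmr, Fcrl1, Fcrl5, Fcrla, Fcrlb, Fcgr2b, Fcer2a and Fcgrt, and 7 of these 8 listed genes could be read from the arrays, out of 19938 genes in all. They were chosen by symbol, among probes annotated to exactly 1 gene, and the probe of a gene was selected on its mean intensity over all 6 arrays, groups pooled. Each of the 7 had 1 such probe, so brightness decided nothing among them. Fcgrt, which encodes the neonatal Fc receptor, had no probe annotated to it alone and was not analysed here. The symbols were listed with differences on these arrays already known, Fcmr and Fcrl5 being among the largest rises, so the values of Fcmr and Fcrl5 are given as a description with no test. For the other members, p-values are those of the fit over all genes and are no independent evidence about the family.

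The cells were pre-B cells transformed by BCR-ABL1, a constitutively active kinase fusion found in acute lymphoblastic leukemia (ALL) with the Philadelphia chromosome, and the labels describe the mice as Balb/c, 4 weeks old and Blnk KO. Of the samples, 3 were transduced with Blnk (also called Slp65), 3 were transduced with the empty GFP vector pMIG, and all 6 share the knockout label and the transformation. Sorting for GFP followed at 5 days after transduction, and the total RNA of each sample was hybridised to 1 Affymetrix array. Whether replicates of a group are separate cultures or animals is not stated in the labels, so each p-value reflects the spread among these arrays alone, which could be technical. The Blnk probe read 2714, 3342 and 3022 in the Blnk samples, against 972, 926 and 1013 in the pMIG samples. The labels do not give the part of Blnk that this probe reads, so its level in the pMIG samples does not check the knockout. The median intensity of an array was 69.0 to 70.0 in the Blnk samples and 67.0 to 69.0 in the pMIG samples, and values below are linear intensities unless a log2 difference is named.

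Fc receptors bind the constant part of antibodies. On B cells they tell the cell how much antibody of a class is already bound, and Fcgr2b in particular dampens signalling from the B cell receptor through an inhibitory motif in its tail. Blnk is an adaptor of the pre-B cell receptor, which links the kinase SYK to its downstream enzymes. Fcmr binds IgM, Fcer2a (CD23) binds IgE with low affinity, Fcrl1 and Fcrl5 are surface relatives of the Fc receptors found on B cells, and Fcrla and Fcrlb are relatives that stay inside the cell.

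The genes lie in a few groups on the mouse genome, and the bases before their starts are shown because neighbours within a group differed in how they moved. In the RefSeq gene order of GRCm38.p6, Fcrlb and Fcrla stood beside each other on chromosome 1 with 0 protein-coding genes between them, and 1 predicted gene separated Fcrla from Fcgr2b. Fcrl1 and Fcrl5 were direct neighbours on chromosome 3. Fcmr lay elsewhere on chromosome 1 and Fcer2a on chromosome 8. RefSeq starts were found for all 7 genes in the GRCm38.p6 table. Fcer2a had 3 starts, and its windows are not printed. The 250 bases that end just before the start are printed 5′ to 3′ on the strand of the gene for the other 6 genes, and capitals mark matches to the motifs named after the sequences.
Fcmr (chr1:130865527-130865776, plus strand): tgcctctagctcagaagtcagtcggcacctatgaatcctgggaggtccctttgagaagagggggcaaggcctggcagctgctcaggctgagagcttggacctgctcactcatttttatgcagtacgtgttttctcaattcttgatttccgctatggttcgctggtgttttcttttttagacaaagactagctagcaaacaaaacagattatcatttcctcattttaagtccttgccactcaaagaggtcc
Fcrl5 (chr3:87435532-87435781, plus strand): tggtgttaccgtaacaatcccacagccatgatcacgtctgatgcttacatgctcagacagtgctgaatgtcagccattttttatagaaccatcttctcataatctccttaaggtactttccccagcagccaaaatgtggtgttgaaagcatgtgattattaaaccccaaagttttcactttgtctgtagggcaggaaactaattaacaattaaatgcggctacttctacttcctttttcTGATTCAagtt
Fcrl1 (chr3:87376137-87376386, plus strand): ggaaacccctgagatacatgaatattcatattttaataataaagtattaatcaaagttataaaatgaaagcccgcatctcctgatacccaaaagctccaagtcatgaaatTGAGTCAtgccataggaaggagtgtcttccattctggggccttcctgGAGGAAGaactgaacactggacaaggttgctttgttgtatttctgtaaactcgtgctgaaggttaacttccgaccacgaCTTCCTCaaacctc
Fcrla (chr1:170927584-170927833, minus strand): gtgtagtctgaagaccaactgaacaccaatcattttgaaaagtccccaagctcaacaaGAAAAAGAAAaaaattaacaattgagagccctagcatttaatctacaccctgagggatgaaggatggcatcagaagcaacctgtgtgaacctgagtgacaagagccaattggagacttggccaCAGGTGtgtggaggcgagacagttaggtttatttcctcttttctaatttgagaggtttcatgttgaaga
Fcrlb (chr1:170912942-170913191, minus strand): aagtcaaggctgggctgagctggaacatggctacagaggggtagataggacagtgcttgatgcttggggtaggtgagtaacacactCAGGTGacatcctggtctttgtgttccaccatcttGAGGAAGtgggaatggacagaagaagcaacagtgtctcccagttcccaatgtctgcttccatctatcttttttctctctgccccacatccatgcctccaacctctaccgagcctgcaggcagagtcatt
Fcgr2b (chr1:170976072-170976321, minus strand): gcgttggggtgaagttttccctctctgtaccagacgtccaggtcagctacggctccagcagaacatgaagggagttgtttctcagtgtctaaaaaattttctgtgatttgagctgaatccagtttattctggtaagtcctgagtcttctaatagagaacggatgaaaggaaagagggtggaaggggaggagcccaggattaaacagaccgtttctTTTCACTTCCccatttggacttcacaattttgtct

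A search of both strands covered 7 motifs of B cell regulators, chosen with these sequences in view. They were the octamer ATGCAAAT, the PU.1 site GAGGAAG, the E2A-type E-box CAGGTG, the composite site of ETS factors and IRF proteins (GGAA, then 2 bases of any kind, then GAAA), the interferon-response core (GAAA, then 2 bases of any kind, then GAAA), the FOXO site TGTTTAC and the AP-1 site TGANTCA. A composite site and an interferon-response core can overlap, and none of the matches below did. Fcgr2b held the composite site from base -35 to -26 before its start, on the opposite strand, a motif found in 2.3% of 32851 RefSeq promoters cut the same way. Fcrla held CAGGTG from -69 to -64 (17.2% of promoters) and the interferon-response core from -192 to -183 (2.98%). Fcrl5 held an AP-1 match from -11 to -5 (6.75%). Fcrl1 held an AP-1 match from -140 to -134 and the PU.1 site at -93 to -87 and at -14 to -8 (10.6%), and Fcrlb held the PU.1 site from -129 to -123 and CAGGTG from -164 to -159. For Fcer2a, not printed, start 1 held an AP-1 match from -228 to -222. Its start 2 held CAGGTG at -244 to -239 and at -99 to -94, and an AP-1 match from -62 to -56. The window of Fcmr held none of the 7, which says only that these letters are not in this window, and the octamer (1.6%) and FOXO site (3.17%) were in none of the 6 windows. These matches are descriptions of letters and not binding sites.

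Fcmr, Fcrl5, Fcrla and Fcgr2b had higher values on every Blnk array than on any pMIG array. Of the 5 members other than Fcmr and Fcrl5, 2 (Fcrla and Fcgr2b) were higher with Blnk and 0 were lower at a limma adjusted p under 0.05, where 2.51% of all genes were higher and 1.1% lower. Since the members were listed with these differences known, nothing is read from that count. Fcrl1, Fcrlb and Fcer2a did not pass. The median log2 difference was 0.51 over the 7 members and 0.00 over all genes. Every Blnk array lay above every pMIG array for 4 of the 7, as it did for 11.8% of all genes, and 0 members lay wholly below, where 8.15% of all genes did. The median and this count include Fcmr and Fcrl5, whose rises were known when the symbols were listed, so nothing is read from either figure. The groups overlapped for the other 3 members.

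The IgM receptor Fcmr had intensities of 1731, 1765 and 2193 in the Blnk samples, against 72, 73 and 63 in the pMIG samples. All 3 pMIG values lay near the median of their arrays, and the lowest Blnk value was 23.7 times the highest pMIG value. The mean was 1896 ± 257 with Blnk and 69.3 ± 5.51 with pMIG (SD, n = 3 each), a 27.3-fold difference (log2 difference 4.77, SE 0.11). The fold may be an underestimate, because the pMIG values are at the array median and the deposited values hold no detection call that shows them above background. As measured, the difference ranked 1 among the rises of all 19938 genes.

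Fcrl5, a surface receptor-like protein of mature B cells, read 398, 567 and 530 in the Blnk samples, against 85, 79 and 87 in the pMIG samples. The groups were well apart, although the Blnk samples themselves spread over 1.43-fold, the widest spread of any member within that group. The mean was 498 ± 88.8 with Blnk and 83.7 ± 4.16 with pMIG (SD, n = 3 each), a 5.89-fold difference (log2 difference 2.56, SE 0.13), which ranked 8 among all rises. The pMIG values lay not far above the array medians, so this fold may be an underestimate too.

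Fcrla, a relative that is kept in the endoplasmic reticulum of B cells and, in human cells, binds immunoglobulin there, read 1727, 1726 and 1951 in the Blnk samples, against 608, 642 and 603 in the pMIG samples. The pMIG samples were already far above the array median, and the lowest Blnk value was 2.69 times the highest pMIG value. The mean was 1801 ± 130 with Blnk and 618 ± 21.2 with pMIG (SD, n = 3 each), a 2.91-fold rise (log2 difference 1.54, SE 0.08; limma adjusted p = 6.44e-05). It ranked 35 among all rises.

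Fcgr2b, the inhibitory IgG receptor, read 1055, 1075 and 1174 in the Blnk samples, against 737, 783 and 798 in the pMIG samples. The groups did not overlap, but the gap was small, the lowest Blnk value being 1.32 times the highest pMIG value. The mean was 1101 ± 63.7 with Blnk and 773 ± 31.8 with pMIG (SD, n = 3 each), a 1.43-fold rise (log2 difference 0.51, SE 0.07; limma adjusted p = 0.00981). Its rise did not pass without Blnk replicate 2 (limma adjusted p = 0.0505) or without pMIG replicate 3 (limma adjusted p = 0.0529), while the log2 difference stayed at 0.53 in both. With replicate number as a block the rise did not pass either, at 0.51 (limma adjusted p = 0.0519). Fcgr2b shares much of its extracellular sequence with Fcgr3, so its probe may read some Fcgr3 transcript.

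**Figure D1:**
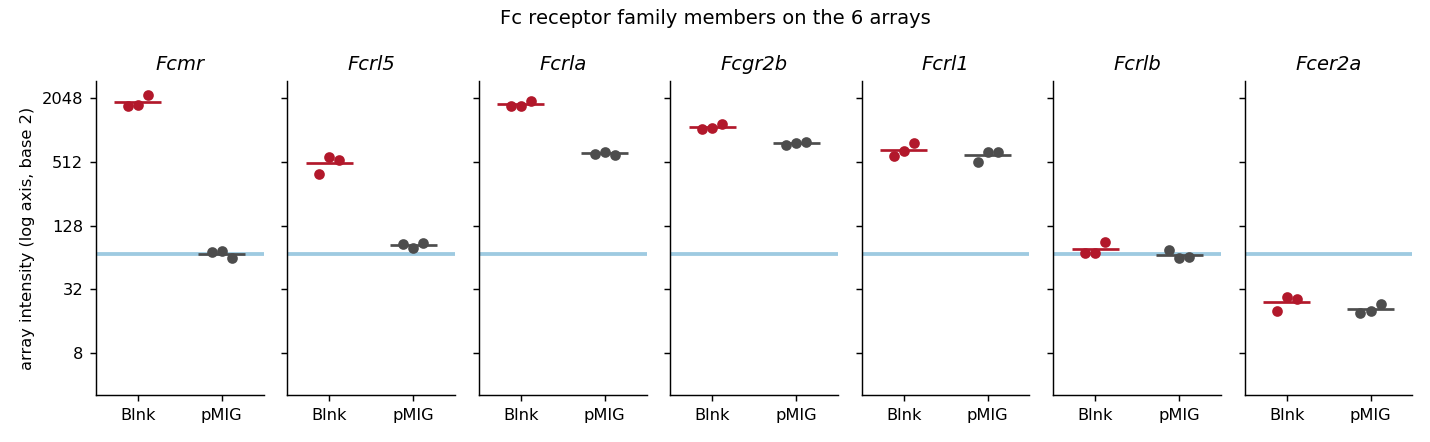
Array intensity of the 7 measured members, with a log axis to base 2; each point is 1 array, short lines are group means of 3 arrays, and the blue band spans the array medians of 67.0 to 70.0. The Blnk points of Fcmr, Fcrl5, Fcrla and Fcgr2b lie above every pMIG point, and the groups overlap for Fcrl1, Fcrlb and Fcer2a.

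Fcrl1, an activating surface relative whose tail carries tyrosine motifs, read 587, 654 and 768 in the Blnk samples, against 509, 642 and 639 in the pMIG samples. It was well above the array median in both groups, and 1 Blnk value fell among the pMIG values. Its log2 difference was 0.17 (95% interval -0.13 to 0.47; limma adjusted p = 0.628), so the interval spans 0.912-fold to 1.38-fold. The interval leaves room for a modest change in either direction and excludes one of the size seen in Fcrl5.

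Fcrlb, the intracellular relative beside Fcrla, read 70, 70 and 90 in the Blnk samples, against 76, 63 and 64 in the pMIG samples. These values lay at about the array median and overlapped (log2 difference 0.18, 95% interval -0.11 to 0.46; limma adjusted p = 0.583). Fcer2a, the low-affinity IgE receptor CD23 and a marker of mature follicular B cells, read 20, 27 and 26 in the Blnk samples, against 19, 20 and 23 in the pMIG samples. It was dim throughout, below the array medians, and its groups overlapped (log2 difference 0.23, 95% interval -0.07 to 0.53; limma adjusted p = 0.480). At such low intensities rounding to whole numbers is itself a visible step.

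Members that sit side by side on a chromosome differed in the size of their difference between the groups. The log2 ratio of Fcrl5 to Fcrl1 within each array was -0.56, -0.21 and -0.54 in the Blnk samples, against -2.58, -3.02 and -2.88 in the pMIG samples, a difference of 2.39. The log2 ratio of Fcrla to Fcrlb was 4.63, 4.62 and 4.44 in the Blnk samples, against 3.0, 3.35 and 3.24 in the pMIG samples, a difference of 1.37. For Fcrla over Fcgr2b the mean log2 ratio was 0.71 ± 0.02 with Blnk and -0.32 ± 0.07 with pMIG (SD, n = 3 each), a difference of 1.03. For Fcmr over Fcrl5, which lie on different chromosomes, it was 1.94 ± 0.26 with Blnk and -0.27 ± 0.18 with pMIG (SD, n = 3 each), a difference of 2.21. For all 4 ratios the groups did not overlap. The ratios restate differences already given for the single genes, so this adds no evidence, and no test was made of them. A ratio within an array shows unequal change, and not that either gene of a pair was unchanged.

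The genes around the members were followed for comparison. The nearest 5 measured protein-coding genes on each side of every member made up 40 genes, with 24 of them below the array median on average. By limma 0 were higher and 0 lower at an adjusted p under 0.05, a count near the background of 2.51% and 1.1% for a list of this size. An unadjusted p under 0.05 was reached by 3 upward and 2 downward, where 8.91% and 6.32% of all genes did so, and their median log2 difference was 0.07. Mapkapk2, a stress-activated kinase downstream of p38 and the brightest of them, read 1231, 1151 and 1186 in the Blnk samples, against 1131, 1179 and 1146 in the pMIG samples. Sdhc, a subunit of mitochondrial complex II near Fcgr2b, read 1131, 1097 and 1153 in the Blnk samples, against 1192, 1096 and 1153 in the pMIG samples. Both pairs of groups overlapped. The immunoglobulin transporter Pigr and the IgA and IgM receptor Fcamr, which flank Fcmr on one side, stood at log2 differences of -0.11 and 0.12 (limma adjusted p = 0.720 and 0.609). Il24, its first measured neighbour on the other side, stood at 0.07 (limma adjusted p = 0.806). Pigr read 37 to 49, Fcamr 26 to 32 and Il24 20 to 24, below the array medians, which limits what can be said of a change. In fits that left out dim genes, added a constant or used another variance prior, Atf6 and Pfkfb2 were past the threshold upward and Dclk2 downward.

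**Figure D2:**
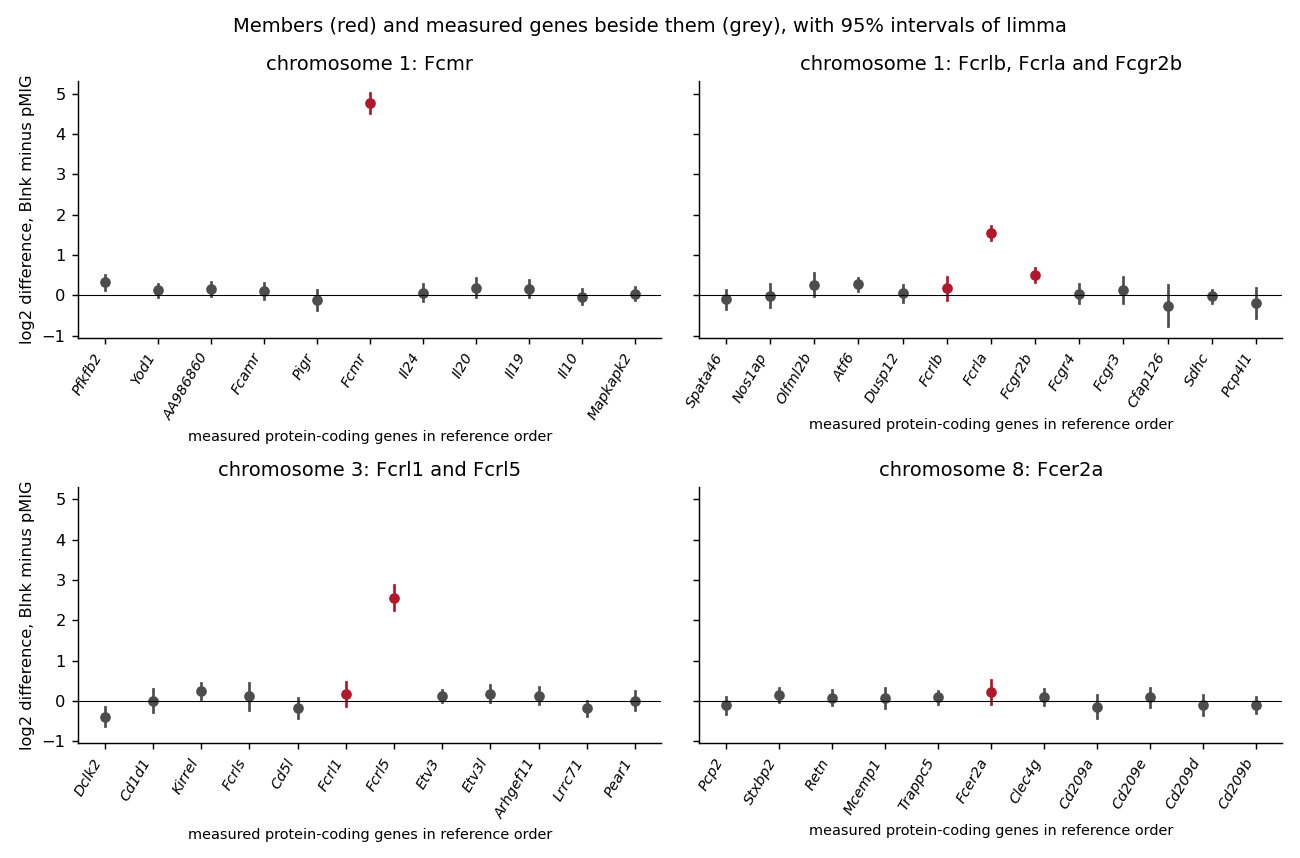
Log2 difference in intensity, Blnk minus pMIG, with 95% intervals of limma, for the members (red) and the measured protein-coding genes beside them (grey) in RefSeq gene order; the horizontal axis is order and not distance. Fcmr at 4.77, Fcrl5 at 2.56, Fcrla at 1.54 and Fcgr2b at 0.51 stand above the grey genes, whose values lie between -0.39 and 0.32. The members were listed with these differences known, so nothing is read from this. Fcmr and Fcrl5 are shown with no test.

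Fc receptors outside the listed family mostly stayed below the array median. All 11 listed receptors and partner chains were measured, 9 of them below the median on average. By limma 1 was higher and 0 were lower, where 2.51% and 1.1% of all genes were. The median log2 difference was 0.11. The 1 that rose was Fcgr1, the high-affinity IgG receptor best known from macrophages, which read 235, 258 and 233 in the Blnk samples, against 135, 160 and 139 in the pMIG samples (log2 difference 0.74, SE 0.09; limma adjusted p = 0.00377). The groups of Fcgr1 did not overlap. Fcer1g, the signalling chain that Fcgr1 needs at the surface of myeloid cells, was dim at 38, 37 and 40 in the Blnk samples, against 34, 36 and 37 in the pMIG samples (log2 difference 0.10; limma adjusted p = 0.566). The IgG receptors Fcgr3 and Fcgr4, coded next to Fcgr2b, stood at 0.13 and 0.04 (limma adjusted p = 0.745 and 0.897). Fcgr4 was very dim, at 12 to 15 on all arrays, where rounding steps are coarse. Trim21, a cytosolic antibody receptor and, with Fcgr1, one of the 2 brightest of the list, read 281, 259 and 284 in the Blnk samples, against 224, 238 and 274 in the pMIG samples, with overlap (log2 difference 0.17; limma adjusted p = 0.463).

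**Figure D3:**
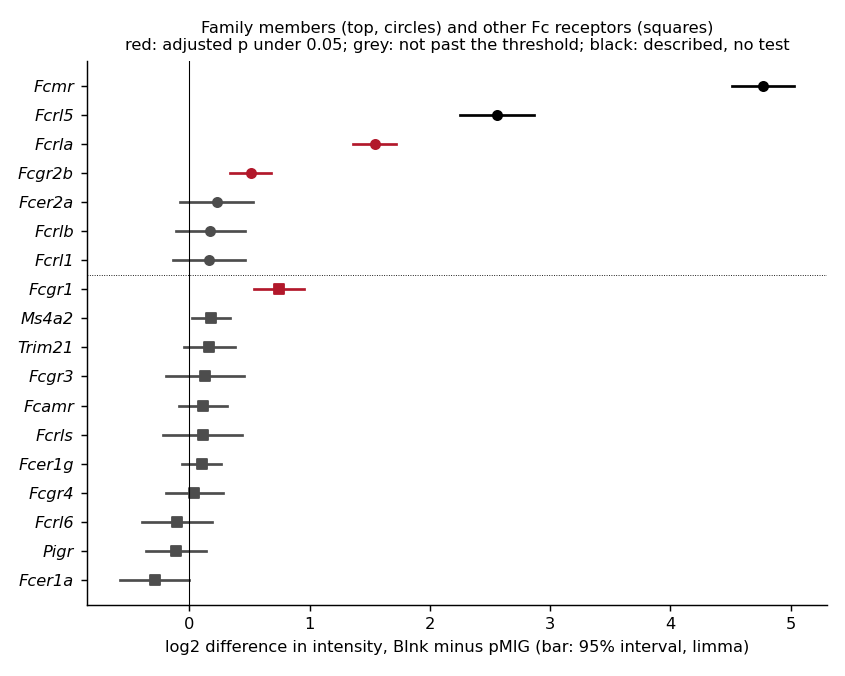
Log2 difference in intensity, Blnk minus pMIG, with 95% intervals of limma (3 arrays per group), for the 7 members (circles, above the dotted line) and 11 other Fc receptors and their partner chains (squares). Red marks an adjusted p under 0.05, reached by Fcrla, Fcgr2b and Fcgr1, and black marks Fcmr and Fcrl5, which are shown with no test.

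Among markers of other cell types, those of myeloid cells and of mast cells and basophils were dim. The counts below stand beside 2.51% of all genes higher and 1.1% lower at a limma adjusted p under 0.05. At an unadjusted p under 0.05 by limma, 8.91% of all genes were higher and 6.32% lower. All 10 myeloid markers lay below the array median on average, their summed intensity was 306 to 325 in the Blnk samples and 292 to 320 in the pMIG samples, and by limma 0 were higher and 0 lower, with 0 also at an unadjusted p under 0.05. Their 2 brightest, Mpo and Elane, enzymes of granulocyte precursors, read at most 48 on any array. All 6 markers of mast cells and basophils were below the median as well, with sums of 162 to 171 in the Blnk samples and 167 to 191 in the pMIG samples and 0 past the threshold (by limma, 1 upward at an unadjusted p under 0.05), Tpsb2 and Kit being the brightest. Of 9 measured markers of T and NK cells, 7 were below the median, with sums of 440 to 547 in the Blnk samples and 417 to 510 in the pMIG samples. None of these 9 passed by limma, and 0 had an unadjusted p under 0.05. The brightest were Cd8a, at 184, 255 and 134 in the Blnk samples, against 185, 149 and 176 in the pMIG samples, and Cd3e. Of 4 measured markers of erythroid cells and megakaryocytes, 0 passed, also at an unadjusted p under 0.05, with sums of 189 to 213 in the Blnk samples and 168 to 207 in the pMIG samples; the brightest were Itga2b and Epor. Of 3 measured markers of plasmacytoid dendritic cells, 0 lay below the array median on average, with sums of 1192 to 1233 in the Blnk samples and 1064 to 1116 in the pMIG samples. Siglech rose (98, 135 and 120 in the Blnk samples, against 48, 59 and 52 in the pMIG samples; limma adjusted p = 0.00313), while the brighter Tcf4 and Bst2 stood at log2 differences of 0.15 and -0.11 and did not pass. The part of Siglech-expressing cells in the rise of the members was not tested, and in RNA from many cells a change in the number of cells of a type and a change in RNA per cell cannot be told apart.

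The B lineage markers were bright, with sums of 34967 to 35988 in the Blnk samples and 32139 to 33448 in the pMIG samples over 9 measured genes. These sums include the transduced Blnk, at 2714, 3342 and 3022 in the Blnk samples, against 972, 926 and 1013 in the pMIG samples. Their difference is therefore not read as a rise of the lineage, and the median log2 difference over the 9 genes was -0.03. By limma 2 of the 9 were higher and 1 lower, where 2.51% and 1.1% of all genes were. The 2 that were higher were the transduced Blnk itself and Cd79a, a signalling chain of the receptor (log2 difference 0.31, limma adjusted p = 0.0468). The 1 that was lower was Vpreb1, a surrogate light chain whose probe may also read its close relative Vpreb2, at 956, 1167 and 1146 in the Blnk samples, against 1624, 1748 and 1867 in the pMIG samples (limma adjusted p = 0.00976). Igll1, which codes the constant-like part of the surrogate light chain, did not pass and read 9313, 8968 and 9383 in the Blnk samples, against 10104, 10559 and 10793 in the pMIG samples, and the surface protein Cd24a, the next brightest, read between 5159 and 6837 on all arrays. The recombination-stage enzyme Dntt was dim in both groups, at 20 to 28 in the Blnk samples and 23 to 25 in the pMIG samples. Of 5 plasma cell markers 3 were higher (Jchain, Irf4 and Xbp1) and 0 lower, where 2.51% and 1.1% of all genes were. Their sums were 3120 to 3291 in the Blnk samples and 2073 to 2256 in the pMIG samples. Prdm1, which was dim, stood at a log2 difference of -0.09 (limma adjusted p = 0.720) and Sdc1 at -0.08 (limma adjusted p = 0.848). Irf4 read 1972, 1970 and 1988 in the Blnk samples, against 1430, 1555 and 1501 in the pMIG samples, and Xbp1 read 685, 629 and 664 in the Blnk samples, against 484, 530 and 471 in the pMIG samples.

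Genes of the antibody side of these receptors were measured in part. Of 12 listed genes, 5 had a probe of their own. By limma 1 was higher and 0 were lower, where 2.51% and 1.1% of all genes were. The median log2 difference was 0.14. Ighm, the heavy chain of the IgM that Fcmr binds, was near the array median, at 74, 78 and 71 in the Blnk samples, against 67, 69 and 66 in the pMIG samples. Its groups did not overlap, and its log2 difference of 0.14 did not pass (limma adjusted p = 0.397). Jchain, the linker of IgM pentamers, read 322, 462 and 522 in the Blnk samples, against 30, 46 and 39 in the pMIG samples. Its log2 difference of 3.50 may be an underestimate, since the pMIG values lie below the array median. B2m, the light chain of the neonatal Fc receptor and of class I molecules, read 8130, 7446 and 8068 in the Blnk samples, against 6744, 7088 and 7148 in the pMIG samples (log2 difference 0.17; limma adjusted p = 0.301).

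The enzymes and adaptors that inhibitory Fc receptors recruit were mostly well above the array median. Of 15 measured, 14 lay above the array median on average, and by limma 0 were higher and 0 lower at an adjusted p under 0.05, while an unadjusted p under 0.05 was reached by 5 upward and 1 downward. Among all genes, 2.51% were higher and 1.1% lower at the adjusted threshold, and 8.91% and 6.32% at the unadjusted one. Every Blnk array lay above every pMIG array for 8 of the 15 and below for 2, where 11.8% and 8.15% of all genes did so. The median log2 difference of the 15 was 0.14. Inpp5d (SHIP-1), the phosphatase through which Fcgr2b acts, read 2124, 2221 and 2209 in the Blnk samples, against 2100, 2111 and 2135 in the pMIG samples, and these groups overlapped. Ptpn6 (SHP-1), the phosphatase of many inhibitory receptors, read 3529, 3341 and 3476 in the Blnk samples, against 2846, 2796 and 2789 in the pMIG samples. The groups of Ptpn6 did not overlap (log2 difference 0.30, SE 0.06), and its adjusted p of 0.0508 by limma lay just beyond the threshold. Ptpn6, Inppl1 and Cblb passed when dim genes were left out, when 16 was added before log2 and with the other variance prior.

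Surface receptors of mature B cells were measured for 20 of 22 genes, of which 12 were higher and 0 lower at a limma adjusted p under 0.05. Among all genes 2.51% were higher and 1.1% lower. The median log2 difference of the 20 was 0.61. The list was drawn up with results of these arrays known, so its direction is no independent evidence. The 6 with the smallest adjusted p were H2-Aa, a class II chain (log2 difference 1.64), Cd40, the costimulatory receptor (1.27), Cd74, the invariant chain (1.16), Cxcr5, the follicle-homing receptor (0.90), Ms4a1, the antigen CD20 (1.52), and Cd55, a shield against complement (1.31). Ms4a1 read 1477, 2013 and 2230 in the Blnk samples, against 657, 653 and 654 in the pMIG samples. Beside Cd74, the brightest was Cd24a, which did not pass (0.17; limma adjusted p = 0.432).

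The genes whose log2 intensity over the 6 arrays ran most like that of Fcmr were Tmbim6 (r = 0.9995), Gas7 (0.9993), Fcrla itself (0.9992), Cfp (0.9989) and Fam24a (0.9985), with placeholder symbols and antibody variable segments left aside. Fcrla was thus the third closest of all these genes to Fcmr. Their sizes of change were unlike: Cfp stood at a log2 difference of 2.21, Gas7 at 1.58, Tmbim6 at 0.44 and the dim Fam24a at 0.14. The genes most like Fcrl5 were Cd40 (0.9998), Tlr9 (0.9997), Btla (0.9996), Cd74 (0.9996) and Rasd1 (0.9995). Rasd1 read 589, 765 and 699 in the Blnk samples, against 210, 203 and 222 in the pMIG samples. Like Fcrl5, it was lowest in Blnk replicate 1 and highest in Blnk replicate 2, and so were Cd40, Tlr9, Btla and Cd74. These Pearson correlations span the group difference itself, and with 6 arrays in 2 groups they are a description of shape with no test.

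Within the Blnk group, replicate 1 was the lowest array for each member except Fcrla, with a tie at 70 for Fcrlb. Fcrla read 1727 in replicate 1 and 1726 in replicate 2. The transduced Blnk was lowest in replicate 1 too, at 2714. The highest Blnk array was not the same for all members. Blnk replicate 3 was the highest Blnk array for 5 of the 7 members and replicate 2 for 2, while among the pMIG arrays replicate 2 was highest for 3, replicate 3 for 3 and replicate 1 for 1. Over the 14 other settings of the fit, the log2 difference was 4.48 to 4.83 for Fcmr and 2.35 to 2.71 for Fcrl5, and Fcrla passed in all 14, at 1.48 to 1.57. Over the settings, Fcrl1 stayed between 0.06 and 0.26, Fcrlb between 0.05 and 0.26 and Fcer2a between 0.13 and 0.36, and none of these 3 passed in any of them.

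**Figure D4:**
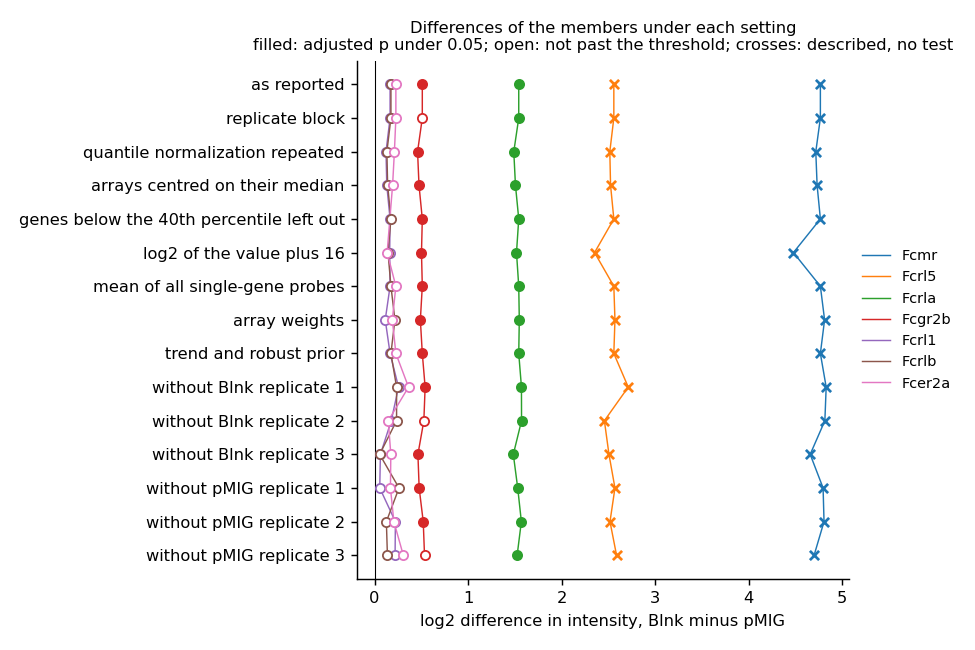
Log2 difference in intensity, Blnk minus pMIG, of each member as reported (top row) and under 14 other settings; filled circles have an adjusted p under 0.05, open circles do not, and crosses mark Fcmr and Fcrl5, shown with no test. Fcgr2b is open in 3 settings, and Fcer2a has no point where genes below the 40th percentile were left out.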

How the data were processed

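Array values of 6 samples were used, and the authors deposited them as linear intensities, whole numbers from 3 to 22187. Per the submitters' processing notes RMA was applied, with no version stated. RMA itself returns log2 values, so the whole numbers may be RMA values returned to the linear scale, which is inferred from the values. Of 35421 probes, 21789 had 1 gene symbol in the platform annotation, 1621 had several and 12011 were not listed. On each array 13.7% to 14.1% of probes were below 16, where rounding steps are coarse. The number of arrays limits the precision.

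Log2 was taken with nothing added, and the Blnk group was set against the pMIG group by limma 3.58.1 (lmFit, eBayes; R 4.3.3) over 19938 genes, with two-sided tests, Benjamini-Hochberg adjustment and a threshold of 0.05. All genes gave 500 higher and 220 lower (69.4% higher), against 411 and 327 (55.7%) after repeated quantile normalization and 417 and 291 (58.9%) with arrays centred on their medians.

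The members and lists were chosen with earlier results of these data known. The rule named all members and Blnk, up to 6 genes past the threshold and the 2 brightest of each list, the 2 brightest of each marker list, and the 5 genes most like Fcmr and Fcrl5. Genes named beyond it were chosen after their values were seen. Promoter sequences are from RefSeq (GRCm38.p6). Replicate numbers are not said to pair the samples. Deviations of same-numbered arrays correlated at -0.19, 0.06 and -0.12, and those of differently numbered arrays at -0.21 to 0.28. With 3 arrays per group these values cannot settle whether samples were paired. Fcgrt was not analysed here.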

Additional observations from a re-analysis of the deposited data

How the results depend on the processing

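Fcrla rose under every one of the 14 alternatives run, and Fcrl1, Fcrlb and Fcer2a passed under none (Fcer2a was dropped as dim in 1). Fcgr2b kept its direction, at log2 differences of 0.46 to 0.54, and did not pass without Blnk replicate 2 or without pMIG replicate 3. With the replicate block, whose numbers are not said to pair the samples, Fcgr2b stood at 0.51 and did not pass (limma adjusted p = 0.0519). In that block 208 genes were higher and 81 lower.

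Leaving out dim genes gave 807 higher and 421 lower genes, adding 16 gave 359 lower genes, and the trend and robust prior gave 1021 higher and 518 lower genes. With 1 array left out, 195 to 304 genes were higher and 72 to 133 lower, fewer samples weakening the test by construction. Of the inhibitory effectors 3 were higher without dim genes, with 16 added and with the trend prior, and 1 with probes averaged or with array weights. Of the genomic neighbours 2 were higher and 1 lower without dim genes, with 16 added and with the trend prior, and 0 to 1 were lower with 1 array left out (Dclk2, without Blnk replicate 2). Of the antibody genes 2 were higher with the trend prior and 1 was lower with array weights, and 0 to 1 were lower with 1 array left out (Igha, without pMIG replicate 1). The causes of these changes in counts were not tested. Intensities at or below the array median, as for Fcrlb and Fcer2a, limit what can be said of a change.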
